A study of Mus musculus with 29 samples.

Results

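The antigen presentation genes described here are 10 genes of the MHC class I and class II pathways, H2-Aa, H2-Ab1, H2-Eb1, Cd74, B2m, H2-K1, H2-D1, Tap1, Tapbp and Psmb8, out of 36172 gene rows in the deposited table. They were matched by gene symbol, each symbol named 1 row, and all 10 passed the filter on low counts in every comparison. Their RNA was followed in brains of mice of 2 genotypes, Aldh1l1-Cre/Ert2+; NuTRAP+ (Aldh1l1-NuTRAP) and Cx3cr1-Cre/Ert2+; NuTRAP+ (Cx3cr1-NuTRAP). The NuTRAP construct, once recombined, puts an EGFP tag on the ribosomal protein L10a, so that ribosomes of the recombined cells, with the RNA on them, can be pulled from a brain homogenate (TRAP). Every mouse of both lines carried the construct and a tamoxifen-dependent Cre and was given tamoxifen when about 3 months old, so no group was free of Cre, construct or drug. The methods name both sexes, and the sex of each mouse is not in the labels. The Aldh1l1 promoter drives Cre in astrocytes, and the Cx3cr1 promoter drives it in microglia and also in other macrophages and monocytes, which limits what a positive fraction of that line stands for. In that line brains were taken some weeks after the drug, so that short-lived blood monocytes could be replaced by unlabelled ones. The mice carried the Cre and the construct as heterozygotes, and a hemisected brain went into the pulldown.

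The 29 libraries came from 3 Aldh1l1-NuTRAP mice, each with a negative (unbound) and a positive (pulled down) fraction, and from 6 Cx3cr1-NuTRAP mice, each with an input (cleared homogenate) as well as both fractions. For 5 of these 6, whole tissue was measured too. The former line had no input or whole tissue among the libraries analysed here. Total counts lay between 8782235 and 26857866 in 28 libraries, and the whole tissue of mouse 210 was the shallowest at 4260949. Both libraries of mouse 290 stood apart from the others of the Aldh1l1-NuTRAP line, with a chi-square per degree of freedom of 94.0 and 108 in the positive fraction, against 12.8 between the other two mice, and of 61.0 and 63.2 in the negative fraction, against 21.9. They were also the shallowest of that line, and results that change without that mouse are given beside each value. Among the Cx3cr1-NuTRAP libraries, the negative fraction of mouse 155 stood apart at 43.8 to 60.7, against 4.18 to 10.8 between the other 5, and the positive fractions of mice 155, 192 and 194 (19.6 to 43.5 between them) differed by 25.5 to 174 from those of mice 209, 210 and 277 (8.25 to 15.9). Leaving out any 1 of these mice changed no call of the 10 genes between positive fraction and input or negative fraction. All 8 astrocyte markers, among them Gfap and Aqp4, were higher in the Aldh1l1-NuTRAP positive than negative fraction, with a median log2 fold change of 3.13, and all 14 microglial markers, among them C1qa and P2ry12, were higher in the Cx3cr1-NuTRAP positive fraction than in input, with a median of 3.53. The defining markers of each labelled cell type were thus present and raised. All 10 border-associated macrophage markers, among them Mrc1 and Pf4, were also higher in the Cx3cr1-NuTRAP positive fraction, with a median of 2.89.

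MHC class I molecules display peptides from inside the cell to CD8 T cells. Their heavy chain (H2-K1, H2-D1) pairs with beta-2 microglobulin (B2m), peptides are cut by the proteasome, in which Psmb8 replaces Psmb5 to make the immunoproteasome, are carried into the endoplasmic reticulum by the transporter of which Tap1 is one chain, and are loaded with the help of tapasin (Tapbp). MHC class II molecules (H2-Aa with H2-Ab1, and H2-Eb1 as the beta chain of the second isotype) display peptides from endosomes to CD4 T cells. The invariant chain (Cd74) blocks their groove until it is cut away. The alpha chain gene of the second isotype carries a pseudogene symbol, H2-Ea-ps, and was at 0 CPM in the Aldh1l1-NuTRAP negative fractions. H2-Eb1 is therefore read here as RNA only. In healthy brain, class I transcripts occur in many cell types, and class II transcripts are known mainly from macrophages at the borders of the brain, dendritic cells and activated microglia.

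In the build used by the authors, mm10, 8 of the 10 genes lie in the MHC region of chromosome 17. B2m is at chr2:122147687-122153082 on the forward strand, and Cd74 is outside the MHC region too. H2-K1 is at chr17:33996012-34000333 on the reverse strand, H2-D1 at chr17:35263094-35267497 on the forward strand, and Tap1 and Psmb8 are neighbours on the forward strand at chr17:34187556-34197225 and chr17:34198195-34201454. The class II chains lie between these, H2-Ab1 at chr17:34263227-34269418 on the forward strand, H2-Aa at chr17:34282751-34287771 on the reverse strand and H2-Eb1 at chr17:34305867-34316674 on the forward strand.

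The promoters of 4 members are shown because the class II chains moved together in the results and the 2 class I heavy chains, which hold the same NF-kappa-B site, did not in the Aldh1l1-NuTRAP mice. Each runs from 250 bases before to 50 bases after a start of the gene, 5′ to 3′ on the strand of the gene, from RefSeq (GRCm38.p6, the assembly of mm10). Capitals mark 4 motifs searched on both strands. GGGGATTCC is most of the NF-kappa-B site known from class I promoters. GAANNGAAA is a form of part of an interferon-stimulated response element, and other forms of that element were not searched. CTGATTGG is the Y box, and GCAAC is part of the X box of class II promoters. Matches to different motifs did not overlap in these windows. Of 32851 promoters of the same length, 0.25% held the first, 7.52% the second, 4.1% the third and 35.2% the fourth.
H2-Aa promoter, chr17:34287774-34288073, reverse strand: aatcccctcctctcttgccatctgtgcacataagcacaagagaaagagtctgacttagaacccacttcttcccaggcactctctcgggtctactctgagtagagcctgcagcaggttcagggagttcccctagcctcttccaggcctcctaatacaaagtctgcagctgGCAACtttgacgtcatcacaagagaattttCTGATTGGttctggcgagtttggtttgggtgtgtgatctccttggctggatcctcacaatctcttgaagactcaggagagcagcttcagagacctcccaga
H2-Eb1 promoter, chr17:34305617-34305916, forward strand: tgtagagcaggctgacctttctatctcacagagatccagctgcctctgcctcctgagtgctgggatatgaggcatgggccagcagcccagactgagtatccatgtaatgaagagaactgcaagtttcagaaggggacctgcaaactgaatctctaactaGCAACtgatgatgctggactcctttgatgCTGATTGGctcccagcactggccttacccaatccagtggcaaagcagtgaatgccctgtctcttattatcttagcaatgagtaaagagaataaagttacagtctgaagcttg
H2-K1 promoter, chr17:34000284-34000583, reverse strand: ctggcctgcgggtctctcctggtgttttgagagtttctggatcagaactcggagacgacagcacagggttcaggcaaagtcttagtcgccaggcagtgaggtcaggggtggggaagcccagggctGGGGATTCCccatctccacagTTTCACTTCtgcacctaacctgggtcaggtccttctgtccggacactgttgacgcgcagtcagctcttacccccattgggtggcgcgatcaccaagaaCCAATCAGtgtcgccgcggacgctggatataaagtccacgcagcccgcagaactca
H2-D1 promoter, chr17:35262844-35263143, forward strand: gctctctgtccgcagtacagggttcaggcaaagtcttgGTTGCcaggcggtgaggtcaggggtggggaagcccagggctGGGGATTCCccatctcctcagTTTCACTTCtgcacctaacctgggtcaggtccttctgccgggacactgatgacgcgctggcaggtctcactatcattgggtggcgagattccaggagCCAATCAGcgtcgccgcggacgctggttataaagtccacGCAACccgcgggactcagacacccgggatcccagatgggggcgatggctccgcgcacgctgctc
Both class II promoters held GCAAC followed by CTGATTGG, from 81 and 51 bases before the start in H2-Aa and from 91 and 62 bases before it in H2-Eb1. Both class I promoters held GGGGATTCC, and next to it GAANNGAAA on the reverse strand, at 125 and 104 bases before the start in H2-K1 and 171 and 150 bases before it in H2-D1. CTGATTGG was also present in both on the reverse strand, and in H2-K1 it reached across the start. H2-D1, unlike H2-K1, also held GCAAC at 14 bases before the start and, on the reverse strand, at 212 bases before it. The RefSeq start of H2-Aa lies outside the interval that the deposited table gives for the gene. A match is a description of the letters, and no binding was measured. Tap1 held CTGATTGG on the reverse strand and GCAAC, and the windows of B2m, Tapbp and Psmb8 held none of the 4 as spelled here. Whether those windows hold another form of the interferon-stimulated response element was not tested. Of the 10 members, 8 were matched and read. H2-Ab1 and Cd74 are named only.

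Levels are given as CPM, the count scaled to an equal library total, with the SD over libraries of a group. Levels of different genes were compared per kilobase of the longest protein-coding transcript, and ratios of counts are compared only between libraries, not read as relative levels. In whole tissue of the Cx3cr1-NuTRAP mice, B2m had the highest level of the members at 88.0 ± 14.4 CPM per kb (SD, n = 5). H2-D1 followed at 43.8 ± 7.57 CPM per kb, and H2-K1 at 28.0 ± 6.3 CPM per kb overlapped it in range. Tapbp was at 15.3 ± 2.2 CPM per kb and Cd74 at 5.06 ± 1.73 CPM per kb. The remaining 5 members, Psmb8, H2-Aa, H2-Ab1, Tap1 and H2-Eb1, lay between 1.87 and 3.36 CPM per kb and overlapped their neighbours in range. In bulk RNA such as this, fewer cells of a type and less RNA per cell cannot be told apart.

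The class II genes were at their highest in the positive fraction of the Cx3cr1-NuTRAP mice and at their lowest in that of the Aldh1l1-NuTRAP mice. Cd74, the invariant chain, was at 37.4 CPM in the lowest, 39.3 CPM in the median and 68.2 CPM in the highest of the 6 Cx3cr1-NuTRAP positive fractions. In the inputs of the same mice it was at 6.23, 8.52 and 11.6 CPM. All 6 positive fractions were above all 6 inputs, and the positive fraction of mouse 194 was the highest library. Against input, Cd74 was 5.21-fold higher, with a log2 fold change of 2.38 ± 0.18 (SE) and an adjusted p of 2.29e-07 (edgeR quasi-likelihood test with Benjamini-Hochberg adjustment over all genes tested, as for every fold change below).

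The class II chains followed Cd74. H2-Aa, the alpha chain of the first isotype, lay between 13.1 and 22.2 CPM (median 14.9) in the positive fractions, and between 2.16 and 3.94 CPM in input, with a median of 3.47. Its log2 fold change was 2.29 ± 0.17 (SE), or 4.88-fold. H2-Ab1, its beta chain, lay between 14.0 and 26.1 CPM against 1.9 to 3.86 CPM in input, a log2 fold change of 2.59 ± 0.2 (SE), or 6.04-fold. H2-Eb1 lay between 12.2 and 21.5 CPM against 2.29 to 5.11 CPM, a log2 fold change of 2.07 ± 0.2 (SE), or 4.2-fold. No range of a class II gene in the positive fraction overlapped that in input, negative fraction or whole tissue, and the adjusted p-values against input were at most 1.61e-06.

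In the negative fraction, input and whole tissue the class II genes had overlapping levels. H2-Aa had a mean of 3.44 ± 0.85 CPM (SD, n = 6) in the negative fraction, 3.32 ± 0.658 CPM (SD, n = 6) in input and 2.58 ± 0.697 CPM (SD, n = 5) in whole tissue, and these 3 groups overlapped. The same order of levels, with overlapping ranges, held for H2-Ab1 and Cd74, while H2-Eb1 had its input mean of 3.68 CPM above its negative fraction mean of 3.51 CPM, also overlapping. Against whole tissue the 4 class II genes were higher in the positive fraction by log2 fold changes of 2.35 to 2.94, and against the negative fraction by 2.15 to 2.45. In the comparison with whole tissue the 3 chains, and Psmb8, passed the filter only through the positive fraction, in which they were high.

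In the positive fraction of the Aldh1l1-NuTRAP mice, class II RNA was low, at 2 to 33.2 counts per gene and library. H2-Aa was at 0.84, 0.0952 and 0.448 CPM in mice 290, 293 and 294, the second of these being 2 counts. Their negative fractions held 3.64, 1.17 and 1.43 CPM. The positive fractions were below the negative fractions without overlap, yet the log2 fold change of -1.86 ± 0.76 (SE) did not pass, with an adjusted p of 0.077. H2-Eb1 was at 0.504, 0.825 and 0.269 CPM in the positive and 5.01, 1.97 and 1.43 CPM in the negative fractions. It fell by 2.00 on the log2 scale (SE 0.64, adjusted p = 0.0342), but it did not pass without mouse 293 (log2 fold change -2.72, adjusted p = 0.0594) or without mouse 294 (-1.98, adjusted p = 0.0712).

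Cd74 in the Aldh1l1-NuTRAP mice was at 2.79, 1.29 and 1.17 CPM in the positive fractions of mice 290, 293 and 294 and at 10.4, 4.48 and 3.66 CPM in their negative fractions. Each mouse had less in the positive fraction, and the log2 fold change was -1.49 ± 0.54 (SE) with an adjusted p of 0.0507. H2-Ab1, at 0.667 to 1.76 CPM in the positive and 1.09 to 3.2 CPM in the negative fractions, overlapped, with a log2 fold change of -0.46 and an adjusted p of 0.49. With the mouse as replicate block, H2-Aa (adjusted p = 0.00426) and Cd74 (adjusted p = 0.00079) passed as lower too, so that 3 class II genes were lower in place of 1, where 33.8% of all genes were lower with the block. Without mouse 290, H2-Aa (-1.89, adjusted p = 0.0189) and Cd74 (-1.42, adjusted p = 0.00322) also passed. H2-Aa, H2-Ab1 and H2-Eb1 passed the filter on low counts only through the negative fraction, in which they were higher.

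**Figure D1:**
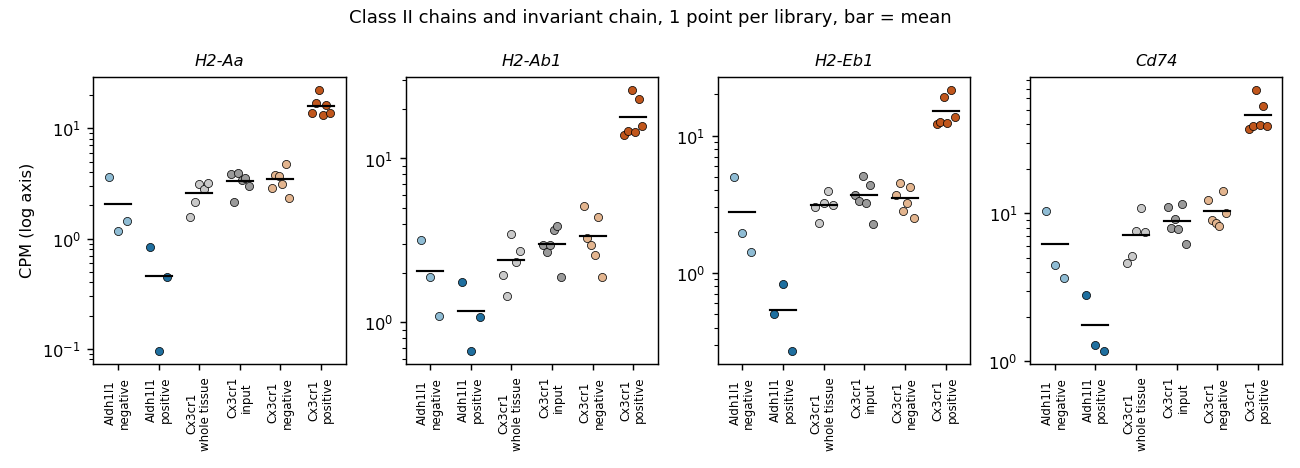
Level of the 4 class II genes in CPM (log axis) in each of the 29 libraries, by line and fraction, with 1 point per library and a bar at the group mean. The 6 Cx3cr1-NuTRAP positive fractions lie above all other libraries for each gene, and the 3 Aldh1l1-NuTRAP positive fractions have the lowest mean.

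Between the lines, the ratio of positive to negative fraction differed for every class II gene, as tested by the interaction of line and fraction. The Cx3cr1-NuTRAP ratio exceeded the Aldh1l1-NuTRAP ratio by 4.16 ± 0.55 (SE) on the log2 scale for H2-Eb1, 4.13 ± 0.6 (SE) for H2-Aa, 3.71 ± 0.49 (SE) for Cd74 and 2.95 ± 0.55 (SE) for H2-Ab1, with adjusted p-values of at most 0.000167. Between the positive fractions themselves, Cd74 was 4.49 ± 0.36 (SE) higher on the log2 scale in Cx3cr1-NuTRAP mice, H2-Aa 4.94, H2-Eb1 4.53 and H2-Ab1 3.70. The 3 chains passed the filter on low counts there only through the Cx3cr1-NuTRAP group, in which they were high, and their folds rest on 2 to 24 counts in the other, so their sizes are uncertain. That comparison shares the positive fractions with the comparisons above.

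Among the class I genes, B2m rose in both positive fractions. B2m, the light chain of every class I molecule, lay between 239 and 431 CPM (median 283) in the Cx3cr1-NuTRAP positive fractions, and between 62.0 and 80.8 CPM in input, with a median of 69.2. No library overlapped, and B2m was 4.28-fold higher, a log2 fold change of 2.10 ± 0.14 (SE) with an adjusted p of 4.65e-08. In the Aldh1l1-NuTRAP positive fractions B2m was at 184, 134 and 153 CPM in mice 290, 293 and 294, and at 75.3, 65.9 and 64.8 CPM in the negative fractions. Here too no library overlapped, and B2m was 2.91-fold higher, with a log2 fold change of 1.54 ± 0.18 (SE) and an adjusted p of 0.00049. The rise in the Cx3cr1-NuTRAP mice over their negative fraction was 1.98, and the difference of 0.49 between the lines did not pass (adjusted p = 0.106), but did without mouse 155 (adjusted p = 0.0484) and with scaling by total counts (0.76, adjusted p = 0.0103). B2m was also 0.61 higher on the log2 scale in the Cx3cr1-NuTRAP than in the Aldh1l1-NuTRAP positive fraction (adjusted p = 0.0251). That difference did not pass without Aldh1l1-NuTRAP mouse 293 (adjusted p = 0.0971) or 294 (0.0786), or without Cx3cr1-NuTRAP mouse 210 (0.0511).

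The classical heavy chains parted in the Aldh1l1-NuTRAP mice. H2-K1 was at 104, 72.4 and 83.8 CPM in the positive fractions of mice 290, 293 and 294 and at 33.5, 24.8 and 19.2 CPM in their negative fractions. It rose 4.27-fold, a log2 fold change of 2.10 ± 0.26 (SE) with an adjusted p of 0.000595, and no library overlapped. H2-D1 was at 77.8, 57.7 and 70.5 CPM in the positive fractions against 70.3, 51.4 and 63.1 CPM in the negative fractions. These ranges overlapped, and the log2 fold change was 0.50 (95% interval 0.12 to 0.88) with an adjusted p of 0.0629. Each of the 3 mice had more H2-D1 in its positive fraction, by 0.56 to 0.6 on the log2 scale, and with the mouse as replicate block H2-D1 passed as higher (log2 fold change 0.50, adjusted p = 0.00134), as it did without mouse 290 (0.48, adjusted p = 0.0091).

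In the Cx3cr1-NuTRAP mice both heavy chains rose. H2-K1 lay between 72.4 and 118 CPM (median 91.3) in the positive fractions, and between 25.4 and 39.3 CPM in input, with a median of 29.7. H2-D1 lay between 167 and 273 CPM, with a median of 205, against 72.3 to 87.9 CPM, with a median of 77.8. Neither gene overlapped between the fractions. H2-K1 was 3.01-fold higher and H2-D1 2.65-fold higher, log2 fold changes of 1.59 ± 0.13 (SE) and 1.40 ± 0.11 (SE).

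The lines therefore differed in opposite directions for these genes. The positive to negative ratio was higher in Cx3cr1-NuTRAP mice by 0.83 ± 0.2 (SE) on the log2 scale for H2-D1 (adjusted p = 0.00221) and lower by -0.71 ± 0.27 (SE) for H2-K1 (adjusted p = 0.0309). The H2-K1 difference did not pass without mouse 294 (-0.57, adjusted p = 0.125), without mouse 155 (-0.66, adjusted p = 0.0549) or with scaling by total counts alone (-0.44). H2-D1 was 1.29 higher in the positive fraction of Cx3cr1-NuTRAP than of Aldh1l1-NuTRAP mice (adjusted p = 8.26e-05), whereas the H2-K1 difference was -0.20 ± 0.17 (SE) with an adjusted p of 0.304, and 0.11 with scaling by total counts. The class I heavy chains have many near-identical copies in the genome. No deposited count of H2-K1 or H2-D1 was a whole number, and how reads that match several copies were counted is not given in the sources used here, so the split between the chains is less certain than their sum. Summed with the other class I heavy chains, they rose by 0.77 in the Aldh1l1-NuTRAP positive fraction (adjusted p = 0.0206), and the difference between the lines was 0.37 (adjusted p = 0.142).

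**Figure D2:**
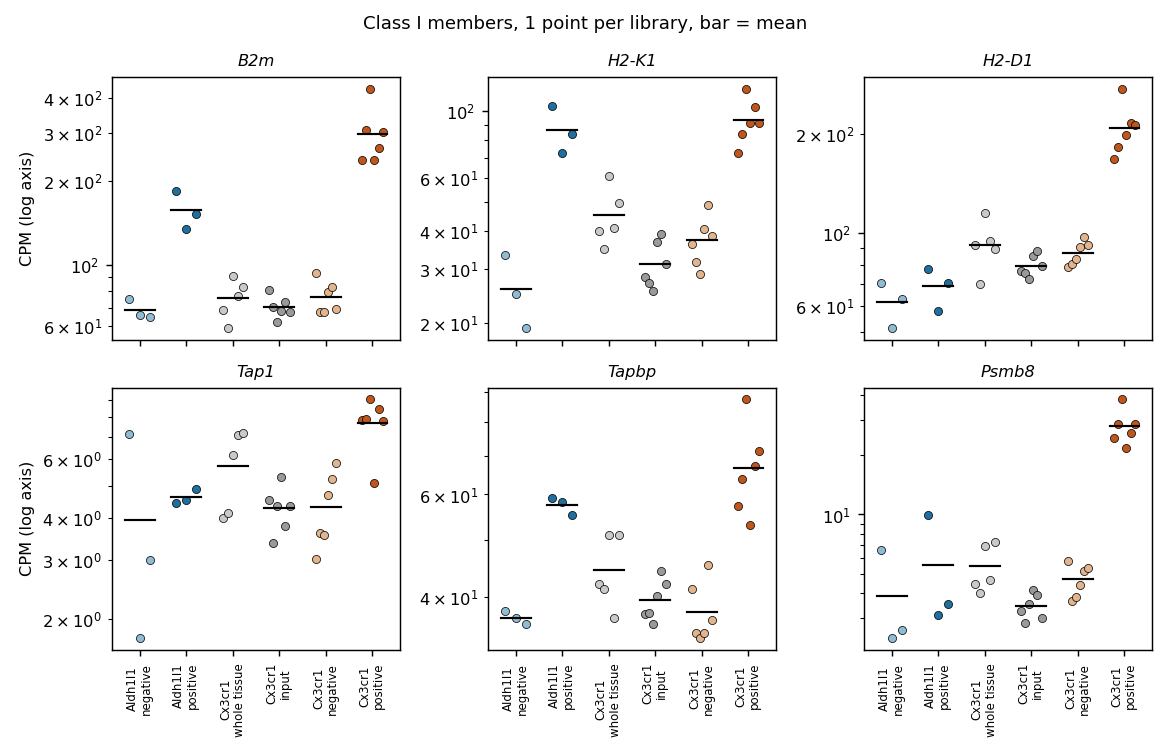
Level of the 6 class I genes in CPM (log axis) in each of the 29 libraries, by line and fraction, with 1 point per library and a bar at the group mean. B2m, H2-K1 and Tapbp are higher in both positive fractions, while H2-D1 and Psmb8 are raised mainly in the Cx3cr1-NuTRAP positive fraction, with means of 208 and 27.9 CPM.

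Psmb8, the immunoproteasome subunit, had the largest log2 fold change of the 10 genes in the Cx3cr1-NuTRAP positive fraction against input and negative fraction, though not against whole tissue (2.36). It lay between 21.6 and 38.1 CPM (median 27.1) in the positive fractions, and between 2.84 and 4.17 CPM in input, with a median of 3.39. All positive fractions were above all inputs, and Psmb8 was 8.13-fold higher, a log2 fold change of 3.02 ± 0.15 (SE) with an adjusted p of 1.45e-08. In the Aldh1l1-NuTRAP positive fractions Psmb8 was at 9.97, 3.1 and 3.53 CPM in mice 290, 293 and 294, against 6.6, 2.37 and 2.62 CPM in the negative fractions. The ranges overlapped, with mouse 290 high in both, and the log2 fold change of 0.89 ± 0.6 (SE) did not pass (adjusted p = 0.25). With the mouse as replicate block it did (0.82, adjusted p = 0.0128). The summed constitutive proteasome subunits were also highest in mouse 290 in this line, at 1548 CPM in the positive and 1402 CPM in the negative fraction, against 771 to 917 CPM in the other 4 libraries. The pulldown ratio, positive over negative, was 1.72 ± 0.51 (SE) higher on the log2 scale in Cx3cr1-NuTRAP mice (adjusted p = 0.00784), and the positive fractions differed by 2.05.

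The genes of peptide transport and loading moved least in the Cx3cr1-NuTRAP positive fraction. Tapbp, or tapasin, lay between 53.1 and 87.5 CPM (median 65.5) in the Cx3cr1-NuTRAP positive fractions, and between 35.9 and 44.2 CPM in input. It was 1.71-fold higher, a log2 fold change of 0.77 ± 0.11 (SE). In the Aldh1l1-NuTRAP mice Tapbp was at 59.2, 58.3 and 55.2 CPM in the positive and 37.8, 36.7 and 35.9 CPM in the negative fractions. It was 1.99-fold higher there, without overlap in either line, and the lines did not show a difference in this ratio (-0.10, 95% interval -0.48 to 0.29). Tap1 lay between 5.09 and 9.04 CPM in the Cx3cr1-NuTRAP positive fractions and between 3.38 and 5.32 CPM in input. These ranges overlapped through the positive fraction of mouse 209, and Tap1 was 1.81-fold higher, a log2 fold change of 0.85 ± 0.15 (SE).

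Tap1 in the Aldh1l1-NuTRAP mice was at 4.45, 4.52 and 4.9 CPM in the positive fractions of mice 290, 293 and 294 and at 7.13, 1.75 and 2.99 CPM in the negative fractions. Mouse 290 had less and the other two mice more in the positive fraction. The log2 fold change of 0.61 ± 0.5 (SE) did not pass (adjusted p = 0.334), but without mouse 290 it was 1.31 (adjusted p = 0.00451). Between the positive fractions Tap1 differed by 0.42 (adjusted p = 0.1), without mouse 209 by 0.52 (adjusted p = 0.025) and with scaling by total counts by 0.73 (adjusted p = 0.00916).

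Counted over the 10 genes, 3 were higher and 1 lower in the Aldh1l1-NuTRAP positive than negative fraction, where 26.8% of all genes tested were higher and 24.8% lower. The median log2 fold change was -1.68 over the 4 class II genes and 0.94 over the 6 class I genes, beside 0.04 over all genes. With the mouse as replicate block, 5 of the 10 were higher and 3 lower, where 37% of all genes were higher and 33.8% lower, so these counts lie near the background. All 10 were higher in the Cx3cr1-NuTRAP positive fraction than in input, with a median of 2.08, where 23.3% of all genes were higher and 25.6% lower. All 10 were also higher than in the negative fraction, with a median of 2.06, where 12.8% of all genes were higher and 11.6% lower. Against whole tissue 9 of the 10 were higher, with a median of 2.17, where 27.5% of all genes were higher and 24.3% lower. The exception was Tap1 (0.48, adjusted p = 0.0648), which passed without mouse 209 (adjusted p = 0.0381). These 3 comparisons share the 6 positive fractions and are not independent.

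Between the positive fractions, 7 of the 10 were higher in Cx3cr1-NuTRAP mice and none lower, where 33.1% of all genes were higher and 30.6% lower. The pulldown ratio was higher in that line for 6 and lower for 1, where 29.9% of all genes were higher and 25.5% lower. Comparisons with the Aldh1l1-NuTRAP positive fraction depended on the scaling. With scaling by total counts alone, in place of trimmed means, the median of all genes moved from 0.04 to -0.31 in the positive against negative fraction of that line, from 0.08 to 0.39 between the positive fractions and from 0.11 to 0.38 for the difference of ratios. The genes called higher and lower went from 3569 and 3299 to 2438 and 4812 in the first, from 4530 and 4188 to 6304 and 2880 in the second, and from 4179 and 3572 to 5712 and 2604 in the last. B2m, H2-K1 and Tapbp were still called higher in the Aldh1l1-NuTRAP positive fraction under that scaling, B2m by 1.19 and Tapbp by 0.65.

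**Figure D3:**
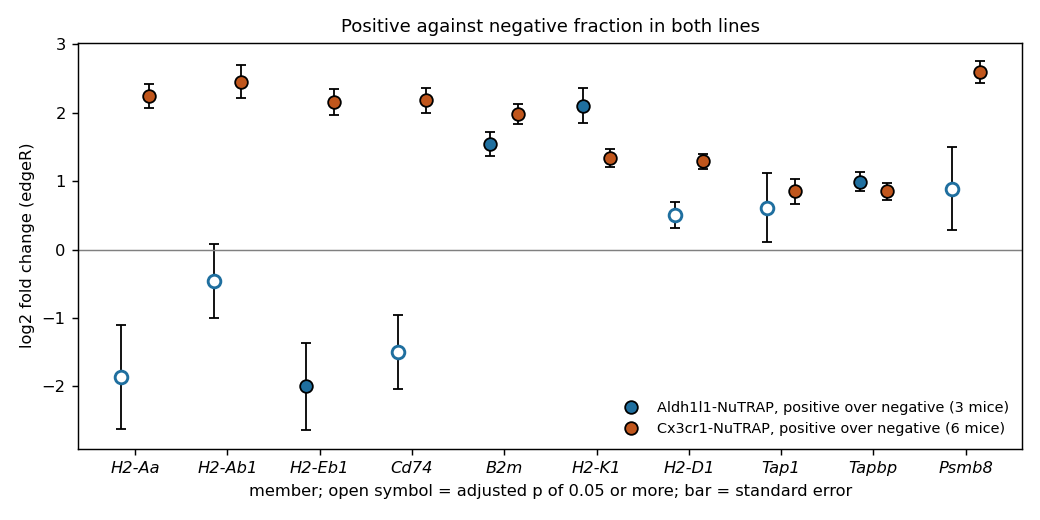
Log2 fold change of positive over negative fraction for each of the 10 genes in Aldh1l1-NuTRAP mice (3 mice) and Cx3cr1-NuTRAP mice (6 mice), with the standard error as a bar and an open symbol where the adjusted p was 0.05 or more. The 4 class II genes lie below 0 in the first line, where only H2-Eb1 passed, and above 2 in the second, where all passed.

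The unbound fraction was also compared with the homogenate it came from. Of the 10 genes, 0 passed between negative fraction and input of the Cx3cr1-NuTRAP mice by edgeR, where 1.41% of all genes were higher and 4.7% lower in the negative fraction. At an unadjusted p under 0.05 there were 2, Psmb8 and H2-D1, and DESeq2 called 1, Psmb8 (adjusted p = 0.0333). The fold changes ran from -0.06 for H2-Eb1 and Tapbp to 0.45 for Psmb8 (adjusted p = 0.0721). With the mouse as replicate block 4 class I genes passed as higher in the negative fraction, Psmb8 by 0.45 (adjusted p = 0.0216), H2-K1 by 0.27 (0.00157), H2-D1 by 0.14 (0.0117) and B2m by 0.13 (0.0487), where 17.7% of all genes were higher and 19.5% lower.

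Input and whole tissue differed for 2 of the 10 genes, both of class I, where 15.7% of all genes were higher and 14.6% lower in input. H2-K1 lay between 25.4 and 39.3 CPM in input and between 35.1 and 61.0 CPM in whole tissue, and fell by 0.55 on the log2 scale (adjusted p = 0.0117). Psmb8 lay between 2.84 and 4.17 CPM in input and between 4.03 and 7.27 CPM in whole tissue, and fell by 0.69 (adjusted p = 0.0122). Both ranges overlapped slightly, and neither gene passed without mouse 277 (adjusted p = 0.0509 and 0.0798). Tapbp (-0.27, adjusted p = 0.0175) passed as lower without mouse 210, whose whole tissue was the shallowest library, and H2-D1 (-0.28, adjusted p = 0.0306) without mouse 194. The class II genes were 0.26 to 0.40 higher in input and did not pass. All 12 endothelial markers and 6 of 7 tested markers of pericytes and smooth muscle were lower in input than in whole tissue, with medians of -1.24 and -1.10, and the summed endothelial level was 223 to 248 CPM in input against 325 to 580 CPM in whole tissue. Of 6 oligodendrocyte markers 5 were lower in input too, among them Mobp (-0.98) and Mbp (-0.91), with sums of 4028 to 4627 against 5786 to 7896 CPM. The interferon response genes Gbp3 (-0.98) and Gbp2 (-0.86) were also lower in input, and Irf2 (0.28) was higher. Of the choroid plexus markers Aqp1 (1.18), Folr1 (1.01) and Kl (0.81) were higher in input, and the rest did not pass. Of the astrocyte markers Fgfr3 (-0.45), Gja1 (-0.29) and Slc1a2 (-0.17) were lower, and the rest did not pass. The part of these cells in the difference of H2-K1 and Psmb8 was not tested.

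Within a library, the share of one gene among related genes does not depend on scaling. These ratios were chosen with their values known. They were compared by two-sided exact permutation tests, 25 in all, with Benjamini-Hochberg adjustment over them. These tests exchanged libraries freely and left out the pairing of fractions from the same mouse. Their p-values, and the smallest possible ones named below, hold for unpaired libraries only, and no paired test of the ratios was run. H2-K1 made up 57.2%, 55.7% and 54.3% of the H2-K1 and H2-D1 counts in the Aldh1l1-NuTRAP positive fractions of mice 290, 293 and 294, and 23.3% to 32.5% in the negative fractions of these mice. The difference of 26.3 percentage points had an exact p of 0.1, the smallest that 3 against 3 libraries allow. In the Cx3cr1-NuTRAP positive fractions the share was 31.0% ± 0.97 (SD, n = 6), and it lay 24.7 points under that of the Aldh1l1-NuTRAP positive fractions without overlap (exact p = 0.0238, the smallest possible, adjusted p = 0.0496). Against the negative fraction of the same line, at 30.0% ± 2.7 (SD, n = 6), the difference of 1.05 points did not pass (exact p = 0.418). The share was 2.91 points above that in input (exact p = 0.0216), and input minus whole tissue was -4.78 points (exact p = 0.0173), both with an adjusted p of 0.0496. Mouse 210 alone went the other way in the latter, at 30.9% in input and 30.3% in whole tissue.

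In counts, the class II chains together came to 16.3% ± 1.93 (SD, n = 6) of the class I heavy chains in the Cx3cr1-NuTRAP positive fractions, ranging from 13.9% to 19.0%. In the negative fractions the figure was 8.36% ± 2.02 (SD, n = 6), and the difference of 7.93 points had an exact p of 0.00216 (adjusted p = 0.009). In the Aldh1l1-NuTRAP positive fractions it was 1.36% ± 0.302 (SD, n = 3), below every other library, against 7.61% ± 3.42 (SD, n = 3) in the negative fractions (exact p = 0.1, the smallest possible). Input, at 9.1% ± 1.97 (SD, n = 6), stood above whole tissue, at 5.88% ± 0.725 (SD, n = 5), by 3.22 points (exact p = 0.00866, adjusted p = 0.0309). The ratio of Cd74 counts to the summed counts of the class II chains ran from 0.653 to 1.49 over the 29 libraries, with group means from 0.787 to 1.03, and no comparison between groups passed (adjusted p from 0.119 to 0.835).

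Psmb8 per kilobase was 11.5% ± 3.82 (SD, n = 6) of the sum of Psmb8 and its constitutive counterpart Psmb5 in the Cx3cr1-NuTRAP positive fractions, ranging from 8.32% to 18.4%. It was 2.19% ± 0.382 (SD, n = 6) in the negative fractions (exact p = 0.00216, adjusted p = 0.009) and 2.42% ± 1.05 (SD, n = 3) in the Aldh1l1-NuTRAP positive fractions (exact p = 0.0238, adjusted p = 0.0496). No library of another group reached the Cx3cr1-NuTRAP positive fractions. B2m per kilobase was 2.2 ± 0.308 (SD, n = 6) times the summed H2-K1 and H2-D1 level per kilobase in the Cx3cr1-NuTRAP positive fractions and 1.39 ± 0.22 (SD, n = 6) times in the negative fractions (exact p = 0.00216, adjusted p = 0.009). The Aldh1l1-NuTRAP fractions stood at 2.12 and 1.78 times (exact p = 0.1).

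**Figure D4:**
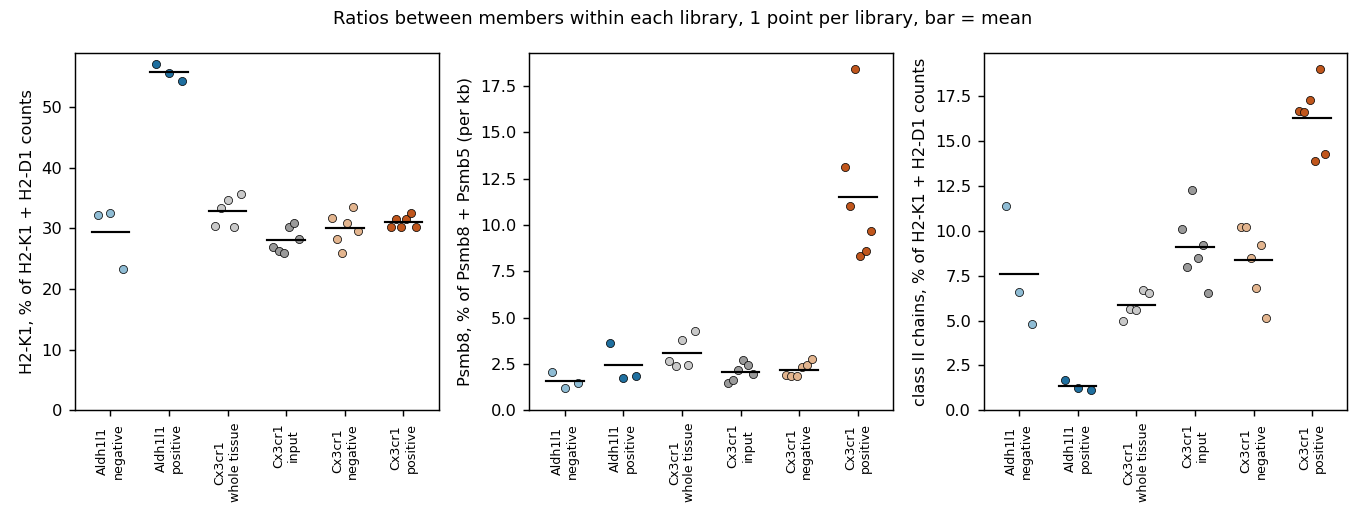
Percentage of H2-K1 among H2-K1 and H2-D1 counts, of Psmb8 among Psmb8 and Psmb5 (each per kilobase), and of the class II chains relative to H2-K1 and H2-D1 counts, with 1 point per library and a bar at the group mean. H2-K1 exceeds 54% only in the 3 Aldh1l1-NuTRAP positive fractions, and the other two percentages are highest in the 6 Cx3cr1-NuTRAP positive fractions.

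Per kilobase, the order of the genes differed between the positive fractions. In the Cx3cr1-NuTRAP mice B2m at 345 ± 83.7 CPM per kb (SD, n = 6) was followed by H2-D1 at 98.8 ± 17.4 and H2-K1 at 57.7 ± 9.74, with B2m and H2-D1 each apart from the next in range. Cd74 at 32.7, Tapbp at 23, Psmb8 at 17.1, H2-Ab1 at 14.9, H2-Aa at 14.2 and H2-Eb1 at 9.15 CPM per kb came next, each overlapping its neighbours, and Tap1 at 2.6 was apart below them. In the Aldh1l1-NuTRAP mice B2m at 182 ± 29.7 CPM per kb (SD, n = 3) was followed by H2-K1 at 53.5 ± 9.82, H2-D1 at 32.7 ± 4.84, Tapbp at 19.9 ± 0.716 and Psmb8 at 3.4 ± 2.36. Tap1, Cd74 and the class II chains followed, overlapping, from 1.57 down to 0.319 CPM per kb for H2-Eb1. H2-K1 stood above H2-D1 in that group alone of the 6.

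The rise of the 10 genes was set beside that of the markers in the same mice. Within the 6 Cx3cr1-NuTRAP mice, the median of the 14 microglial markers was 3.54 ± 0.55 (SD, n = 6) higher on the log2 scale in the positive than in the negative fraction, and that of the 10 border-associated macrophage markers 3.02 ± 0.56 (SD, n = 6). Each of the 10 genes rose by less than the microglial median in all 6 mice. Against the macrophage median, 9 genes rose by less in all 6 mice and H2-Ab1, at 2.46 ± 0.63 (SD, n = 6), in 4 of 6. Psmb8 came nearest to the microglial median among the others at 2.58 ± 0.5 (SD, n = 6), and Tapbp was farthest at 0.86 ± 0.36 (SD, n = 6). Mouse 194 had the highest ratio for all 10 genes and for both marker medians, at 4.55 for microglia and 4.01 for macrophages.

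Markers of other cells were measured in the same libraries. Neuron markers summed to 4010 to 6600 CPM in the Cx3cr1-NuTRAP positive fractions and 6005 to 6287 CPM in input. Astrocyte markers stood at 2778 to 4309 against 4450 to 4823 CPM, and oligodendrocyte markers at 1219 to 3165 against 4028 to 4627 CPM. In Aldh1l1-NuTRAP mice neuron markers summed to 1259 to 1644 CPM in positive and 5772 to 6588 CPM in negative fractions. The part of this RNA in the 10 genes and in the differences between lines was not tested. The summed border-associated macrophage level was 163 to 501 CPM in the Cx3cr1-NuTRAP positive fractions against 27.7 to 48.8 CPM in input. Of 4 tested monocyte and dendritic cell markers 2 were higher than in input, Cd209a (2.63) and Batf3 (1.54), and 1 lower, Zbtb46 (-0.71). The summed levels of the list were 30.9 to 47.8 CPM in the positive fractions and 30.2 to 38.0 CPM in input. None of the 10 lymphocyte markers was high enough to be tested, with Ms4a1, Cd3e and Trbc2 at 3 counts or fewer in every positive fraction. Trbc2 was also at 0 CPM in the Aldh1l1-NuTRAP negative fractions, and whether its row receives reads is not known. The summed lymphocyte level was nevertheless 2.57 to 7.78 CPM in the positive fractions against 2.03 to 2.94 CPM in input, and Cd79b was at 1.91 ± 1.22 against 0.285 ± 0.0605 CPM (SD, n = 6 each). Of the 12 endothelial markers, 5 were higher than input, with Ly6c1 at 0.98, Ly6a at 0.86 and Pecam1 at 0.78, and 3 were higher than the negative fraction. Their summed level was 345, 369 and 335 CPM in the positive fractions of mice 209, 210 and 277, above the 223 to 248 CPM of input, and 181 to 227 CPM in the other 3 mice. The endothelial median over the negative fraction was 0.58 to 0.82 in the former mice. The part of macrophages, monocytes, dendritic cells and lymphocytes in the class II values, and of endothelial cells in the class I values, was not tested. Microglial markers were lower in the Aldh1l1-NuTRAP positive than negative fraction in 13 of 14 cases, with summed levels of 115 to 188 against 451 to 689 CPM. The border-associated macrophage markers summed to 8.3 to 10.4 against 27.3 to 34.8 CPM there, and 2 of 4 tested, Mrc1 (-1.44) and Stab1 (-1.37), were lower. The monocyte and dendritic cell markers summed to 7.85 to 10.9 against 20.4 to 32.7 CPM, and 1 of 2 tested, Flt3 (-1.44), was lower. Their part in the low class II values was not tested. All 6 choroid plexus markers were higher there (2927 to 3378 against 489 to 640 CPM), and their part in the class I values was not tested. The endothelial markers showed 1 higher and 1 lower of 12, with overlapping sums of 222 to 290 and 206 to 287 CPM.

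**Figure D5:**
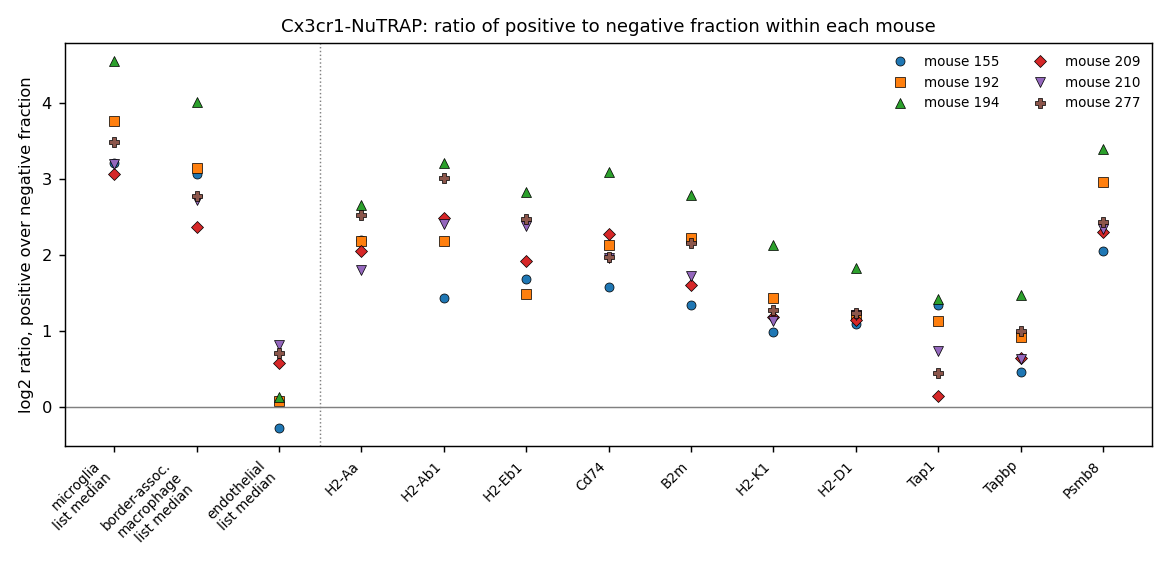
Log2 ratio of positive over negative fraction within each of the 6 Cx3cr1-NuTRAP mice, for the medians of the microglial, border-associated macrophage and endothelial marker lists and for the 10 genes, with 1 symbol per mouse. All 10 genes lie below the microglial median of the same mouse, and mouse 194 is highest for each of them.

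Counts of the other pathway genes are to be read against the shares of all genes called, which were 23.3% higher and 25.6% lower for the Cx3cr1-NuTRAP positive fraction against input and 26.8% higher and 24.8% lower for the Aldh1l1-NuTRAP positive against negative fraction. The class I pathway genes come first. Of 10 tested, 9 were higher and 1 lower in the Cx3cr1-NuTRAP positive fraction than in input, and 5 were higher and 0 lower than in the negative fraction. Psmb9, a further immunoproteasome subunit, was at 8.63 ± 2.6 CPM (SD, n = 6) in the positive fraction and 1.34 ± 0.454 CPM (SD, n = 6) in input, a log2 fold change of 2.70. The proteasome activators Psme1 and Psme2 rose by 0.88 and 0.81, and the chaperone Canx fell by 0.24. Of 9 tested in the Aldh1l1-NuTRAP mice, 3 were higher in the positive fraction and none lower, near the share of all genes. The trimming peptidase Erap1 rose by 1.61, the transporter chain Tap2 by 1.54 and Canx by 0.68. The pulldown ratio was higher in Cx3cr1-NuTRAP mice for Psmb9 (2.01) and lower for Tap2 (-1.03), Erap1 (-0.86) and Canx (-0.79). Of 10 constitutive proteasome subunits, 6 were higher than input in the Cx3cr1-NuTRAP positive fraction, led by Psmb5 at 0.44. Against the negative fraction their median was 0.08 and no adjusted p was below 0.398, and in the Aldh1l1-NuTRAP mice the median was 0.33 and no adjusted p was below 0.0627.

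Other class I heavy chains also differed by line. Mr1, which presents vitamin B metabolites, was at 24.7 ± 9.57 CPM (SD, n = 3) in the Aldh1l1-NuTRAP positive and 3.33 ± 0.695 CPM (SD, n = 3) in the negative fraction, 9.22-fold higher, with a log2 fold change of 3.21. H2-T22 rose by 1.24 there and H2-T24 fell by 1.75, and the other 6 of 9 tested did not pass. In the Cx3cr1-NuTRAP positive fraction 5 of 9 were higher than input and 1 lower, with H2-T24 at 2.07, H2-T23 at 1.49 and H2-Q4 at 1.14 in the first group and H2-Q1 at -0.87 as the lower one. Against the negative fraction 4 were higher and none lower. The pulldown ratio was lower in Cx3cr1-NuTRAP mice for Mr1 (-3.22), H2-Q1 (-1.65) and H2-T22 (-0.98) and higher for H2-T24 (4.03), H2-T23 (1.98) and H2-M3 (1.49).

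Of the other class II pathway genes, 10 of 15 were tested in the Cx3cr1-NuTRAP mice, and 7 were higher and none lower in the positive fraction than in input, as they were against the negative fraction. H2-Oa and H2-Ob, the chains of the class II peptide editor regulator, both had log2 fold changes of 3.89, and Ctss, the protease that cuts the invariant chain, 3.73. H2-DMb1, a chain of the peptide editor itself, was at 15.1 ± 6.35 CPM (SD, n = 6) against 1.84 ± 0.418 CPM (SD, n = 6) in input, while H2-DMa was listed at 0 in every library. Ciita, the class II transactivator, was at 0.323 ± 0.167 CPM (SD, n = 6) in the positive fraction and 0.296 ± 0.147 CPM (SD, n = 6) in input. In the Aldh1l1-NuTRAP positive fraction Ctss fell by 2.5 and H2-Oa had 0 counts in all 3 libraries, so no fold is given for it. Ctsl (1.52), Rfxank (1.48) and Rfxap (0.48), a protease and 2 subunits of the RFX complex at class II promoters, rose there, of 7 tested.

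Genes of costimulation and of the interferon response were read in the same way. All 3 tested costimulatory genes were higher in the Cx3cr1-NuTRAP positive fraction than in input, Cd86 by 3.52, Icosl by 0.96 and Cd274 by 0.54. Against the negative fraction Cd86 (3.5) and Icosl (0.99) passed, and Cd274 did not (0.26, adjusted p = 0.317). Icosl was also higher, by 1.69, in the Aldh1l1-NuTRAP positive fraction, among 2 tested. Of 17 tested interferon response genes, 8 were higher and none lower than input in the Cx3cr1-NuTRAP positive fraction, with Irf8 at 3.30, Bst2 at 2.31 and Ifngr1 at 1.88, where 23.3% of all genes were higher. In the Aldh1l1-NuTRAP mice 7 of 16 were higher in the positive fraction, where 26.8% of all genes were, with Ifit3 at 2.06, Bst2 at 1.73 and Gbp3 at 1.55, and Irf8 was lower at -1.52. The pulldown ratio was higher in Cx3cr1-NuTRAP mice for Irf8 (4.79), Ifngr1 (1.13) and Ifngr2 (0.49) and lower for Ifit3 (-2.11), Gbp3 (-0.92) and Irgm1 (-0.83).

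Across the 29 libraries, the class II genes followed each other closely, and the class I genes did so less evenly. As a description over libraries that share mice and fractions, Pearson's r of log2 CPM was 0.90 to 0.96 between class II genes. Between class I genes it ran from 0.67, for Tap1 and Tapbp, to 0.95, for H2-D1 and Psmb8. It was 0.94 between H2-K1 and Tapbp and 0.78 between H2-K1 and H2-D1. B2m had 0.91 with H2-K1 and with Tapbp, 0.9 with Psmb8 and 0.87 with H2-D1, while H2-D1 was most like Psmb8 among the 10. Cd74 had an r of 0.26 with Tapbp, 0.32 with H2-K1, 0.47 with Tap1, 0.53 with B2m, 0.78 with Psmb8 and 0.8 with H2-D1. Among 14109 genes, the nearest to Cd74 were Lyz2 (0.967), C1qa (0.963), Trem2 (0.960), C1qb (0.959) and Fcgr1 (0.959). The nearest to B2m were Cmtm6 (0.986), Ctsz (0.984), Ctsa (0.978), Cebpa (0.974) and Hexa (0.972).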

How the data were processed

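Expected counts and log2 values per gene were deposited for 29 libraries. After trimming, the authors used Strand NGS to align the directional reads to mm10 and to quantify RefSeq transcripts, and the submitters' processing notes name DESeq for normalization. The deposited log2 values are the authors' normalized expression and were not used. Of the 36172 rows, 14057 were 0 in every library. Of the nonzero deposited counts, 81.4% were not whole within a tolerance of 0.001, so the values are expected counts and were rounded. No column was without a sample. Depth ranged from 4260949 to 26857866 counts per library. The floor (3 counts per library) covers counting error only. The intervals come from the standard error of the edgeR fit, which includes the spread between libraries.

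Groups came from the labels. Each comparison was fitted on its own groups with edgeR 4.0.16 (R 4.3.3), by the quasi-likelihood test with trimmed-mean scaling and robust dispersion, on genes that exceeded 20 counts throughout at least 1 of the groups. P-values were two-sided and adjusted over all genes tested, with a threshold of 0.05. The fits were tested on simulated data. CPM is the count over the library total, correlations used a prior count of 2, and levels per kilobase used the longest protein-coding transcript of the gene. Ratios within libraries, correlations and figures were made with Python 3.11.15, pandas 2.3.3, numpy 2.4.6, scipy 1.17.1 and matplotlib 3.10.9. DESeq2 1.42.0, other scalings and filters, a fit over all 6 groups, summed class I heavy chains, a replicate block for the mouse and fits without each mouse were alternatives.

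Fractions of the same number come from the same mouse, so the numbers pair the libraries. Deviations from the group means correlated in 3 of 3 Aldh1l1-NuTRAP pairs (r from 0.44 to 0.64) and in 5 of 6 pairs of negative fraction and input (0.09 to 0.6) above 0.1, in 3 of 6 pairs of positive and negative fraction (-0.29 to 0.24) and of positive fraction and input (-0.23 to 0.21), and in none of 5 pairs with whole tissue. The 10 genes, the lists of pathway and marker genes and the ratios were chosen with earlier results of these data known. From each list, up to 3 genes with the largest change in each direction among those past the threshold are named in the main comparisons; other named list genes (Ciita, the H2-DM chains) were chosen after their values were seen. Listed genes without a row are not analysed here. P-values measure the spread between these mice.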

Additional observations from a re-analysis of the deposited data

Results flagged for a closer look

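In 40 groups of 6 or 5 libraries in which the extreme library of a gene was checked by Dixon's ratio, 2 stood apart, where chance gives about 1 in 20. B2m was highest in the Cx3cr1-NuTRAP positive fraction of mouse 194, at 431.0 CPM, with the next library at 307 CPM (gap over range 0.646). Tap1 was lowest in the Cx3cr1-NuTRAP positive fraction of mouse 209, at 5.09 CPM, with the next library at 7.79 CPM (0.684). The summed microglial marker level was highest in mouse 194, at 9355 CPM, and lowest in mouse 209, at 3817 CPM, and its part in these values was not tested.

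The ratio of positive to negative fraction differed between the lines, by the interaction test, for 7 of the 10 genes, where the ratio was higher in Cx3cr1-NuTRAP mice for 29.9% and lower for 25.5% of all genes. It was higher in Cx3cr1-NuTRAP mice by 4.13 for H2-Aa, 2.95 for H2-Ab1, 4.16 for H2-Eb1, 3.71 for Cd74, 0.83 for H2-D1 and 1.72 for Psmb8 on the log2 scale, and differed by -0.71 for H2-K1.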

How the results depend on the processing

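Of 1140 refitted fold changes of the 10 genes, 1083 kept their direction and their side of the threshold, 12 dropped below it, 32 passed it and 13 turned; the causes were not tested unless named. In the Aldh1l1-NuTRAP mice 3 genes were higher in the main setting and 5 with the replicate block or with all 6 groups in one fit (3 to 5 without 1 mouse). In place of 1, 3 were lower with the block, all groups, total counts or DESeq2, 2 with DESeq2 size factors or no filter, 0 with at least 100 counts, which left only 4 of the genes, and 0 to 3 without 1 mouse. Genes called went from 6868 to between 3587 and 9731 without 1 mouse, and for Cx3cr1-NuTRAP positive against negative fraction from 3352 to between 1747 and 4273.

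Between negative fraction and input, DESeq2 called 1 of the 10 and the replicate block 4. Over all genes, 840 calls became 281 with no filter, 2050 with DESeq2, 5115 with the block, 59 with all groups and 0 to 3815 without 1 mouse. Between input and whole tissue, 2 lower genes became 1 with at least 100 counts or all groups and 0 to 3 without 1 mouse, and 4123 calls became 2450 with all groups and 2574 to 5395 without 1 mouse. For the difference of ratios, the 1 lower gene became 0 with total counts and 0 to 1 without 1 mouse. Between the positive fractions, 6 to 8 were higher without 1 mouse. That comparison has no block, as the lines share no mice, and in other comparisons the pairing changed no further call of the 10.

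The turned values between negative fraction and input were near 0: H2-Aa -0.05 and -0.03 (without 192 and 210; up to 0.15 without another mouse), H2-Ab1 -0.0037 (without 155; up to 0.31), H2-Eb1 0.10 (without 194; down to -0.16) and Tap1 -0.08 (without 210 or 277) and -0.00014 (all groups). Between the positive fractions H2-K1 became 0.11 and Tapbp 0.21 with total counts, and H2-K1 0.67 with heavy chains summed. For the difference of ratios H2-K1 became 0.37 summed, Tapbp 0.18 with total counts and Tap1 -0.44 without 290 (up to 0.64 without another mouse). Of 60 levels, 5 moved by more than the SD with trimmed-mean scaling, all in the Aldh1l1-NuTRAP positive fraction: B2m to 210 CPM, H2-K1 to 116, H2-D1 to 91.8, Tap1 to 6.15 and Tapbp to 76.8. Low counts limit the class II genes there, with 2 counts of H2-Aa in mouse 293, in a library of 20999571 counts.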
